A study of Mus musculus with 10 samples.

Results

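Metformin is a positively charged drug that crosses membranes poorly and depends on carriers of the solute carrier families to enter and leave cells. The 6 genes described here encode carriers of these families and were taken by name: the organic cation transporters Slc22a2 (OCT2) and Slc22a3 (OCT3), the plasma membrane monoamine transporter Slc29a4 (PMAT), the efflux carrier Slc47a1 (MATE1), and the thiamine transporters Slc19a2 (THTR1) and Slc19a3 (THTR2). Transport of metformin by them was not measured here. They are 6 of the 21613 genes that could be named on the array, and 7 probes measured them, of which Slc19a3 had 2. OCT2 belongs mainly to the kidney, and MATE1 exports organic cations into bile and urine. The thiamine transporters bring in vitamin B1, and THTR2 is known to carry metformin as well.

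RNA came from livers of 10 male mice of the miR-221 transgenic strain TG221 on a B6D2F2 background, 1 array per mouse. All 10 received carbon tetrachloride (CCl4), a hepatotoxin, at 20% by volume in olive oil through a stomach tube, 3 times weekly over 14 weeks, beginning at 4 to 6 weeks of age. In 6 of them metformin was given daily at 300 mg/kg, starting 3 weeks into the CCl4 course, and the other 4 had CCl4 alone. The livers were collected at an end point given as 24 weeks, and whether this is age or time in the experiment is not known here. The labels give liver as the tissue and hepatocellular carcinoma as the cell type, so whether a piece held tumour is not known here. The promoter that drives the transgene is not given in the sources used here, and mice without CCl4 or without the transgene were not analysed here.

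The array intensities are given as log2 signals relative to the 75th percentile of the same array, which is 0 on this scale. That percentile lay between 237 and 363 intensity units, and 51.2% to 54.9% of the probes were well above background, a flag set by the scanner software. Of 10 hepatocyte markers 9 were on the array and passed the filter on dim probes, among them Alb and Ttr. By limma 3 of the 9 were lower and 0 higher with metformin (4 and 0 at an unadjusted p below 0.05). Over all features tested 17.4% were called lower and 28% higher. Among 6 kidney tubule markers, Slc12a1 and Slc12a3 were not well above background on any array. Slc34a1 and Aqp2 were well above background on all 6 metformin and all 4 CCl4 arrays, and Lrp2 on 4 and 3. Of these 3 tested ones 0 were called by limma (1 at an unadjusted p below 0.05). All metformin arrays were on one slide with one scan time and all CCl4 arrays on another, so slide and metformin cannot be told apart in any comparison.

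The 6 carriers fell into 2 detected genes and 4 that were at background. Slc19a2 and Slc47a1 were well above background on all 10 arrays. Slc22a2 was well above background on 0 arrays, Slc22a3 on 1, Slc29a4 on 1, and each Slc19a3 probe on 1. Because probes differ in how strongly they bind, their signals were not compared with each other.

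**Figure D1:**
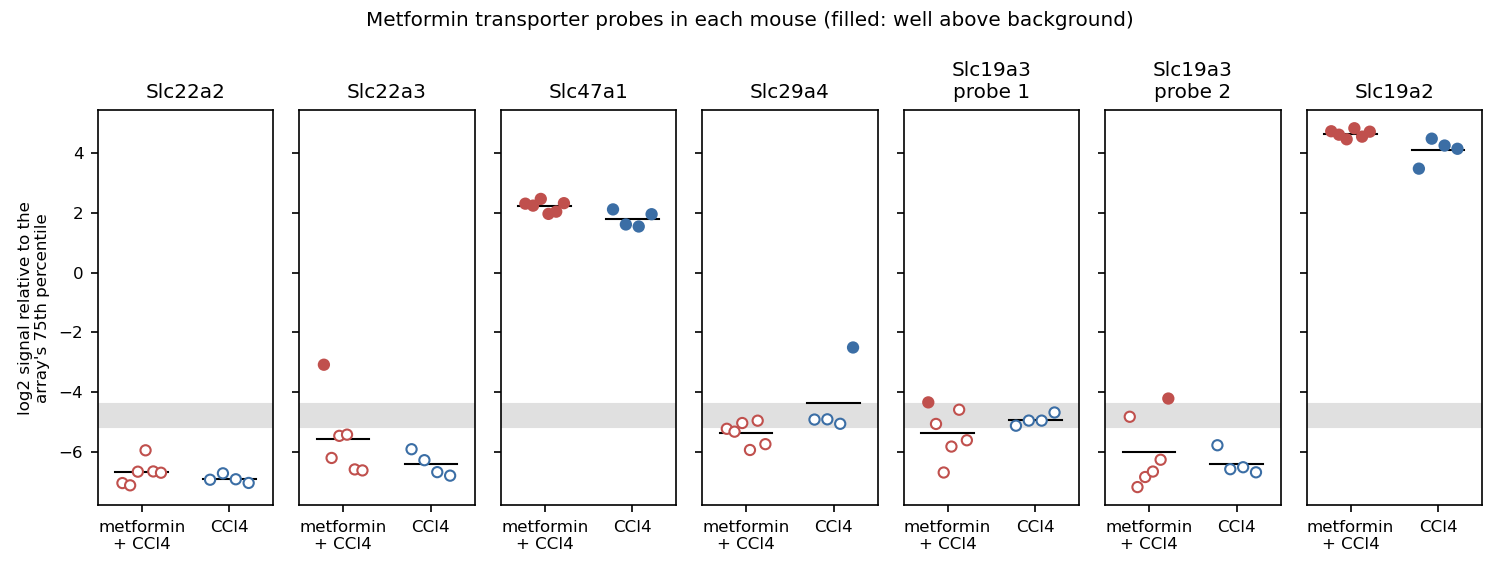
Log2 signal of each transporter probe relative to the array's 75th percentile (vertical axis), with 1 point per mouse, metformin plus CCl4 in red (n = 6) and CCl4 in blue (n = 4), the group mean as a line, and filled points where the spot was well above background. The grey band spans, over the 10 arrays, the lowest signal of any probe well above background; Slc19a2 and Slc47a1 lie above it in every mouse, while the points of the other 4 genes lie in or under it, apart from Slc22a3 in metformin mouse 1, Slc29a4 in CCl4 mouse 4 and the higher values of Slc19a3.

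Upstream sequences are shown for the detected thiamine transporter Slc19a2, for its dim relative Slc19a3, and for Slc29a4, which was well above background on only 1 array while its upstream region is GC-rich like that of Slc19a2. RefSeq promoter entries (build GRCm38.p6) were matched for 5 of the 6 genes, all but Slc47a1. Each run is the 250 bases before the annotated start, read 5′ to 3′ on the strand of the gene, and capitals mark the GC box GGGCGG on either strand. The Slc19a2 window is chr1:164248796-164249045 (plus strand), the Slc19a3 window chr1:83038449-83038698 (minus strand) and the Slc29a4 window chr5:142701851-142702100 (plus strand).
Slc19a2: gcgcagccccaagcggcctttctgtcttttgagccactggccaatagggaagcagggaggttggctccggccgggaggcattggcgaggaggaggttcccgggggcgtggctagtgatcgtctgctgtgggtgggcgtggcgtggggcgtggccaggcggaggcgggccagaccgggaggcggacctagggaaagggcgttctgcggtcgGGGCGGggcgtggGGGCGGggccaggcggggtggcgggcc
Slc19a3: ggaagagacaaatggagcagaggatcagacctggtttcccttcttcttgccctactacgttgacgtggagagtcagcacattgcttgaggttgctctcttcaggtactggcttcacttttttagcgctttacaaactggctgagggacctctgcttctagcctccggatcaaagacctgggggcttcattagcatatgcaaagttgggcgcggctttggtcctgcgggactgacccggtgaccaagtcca
Slc29a4: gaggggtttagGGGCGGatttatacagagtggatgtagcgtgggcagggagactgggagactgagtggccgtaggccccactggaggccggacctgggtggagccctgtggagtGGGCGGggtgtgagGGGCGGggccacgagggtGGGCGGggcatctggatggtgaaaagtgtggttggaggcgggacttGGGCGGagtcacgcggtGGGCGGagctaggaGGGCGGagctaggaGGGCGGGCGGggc

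The Slc19a2 window held 2 GC boxes and 23 CpG dinucleotides, with a GC content of 73.2%. The Slc29a4 window held 9 GC boxes, overlapping ones counted separately, and 16 CpG, with a GC content of 68.8%. The Slc19a3 window held 0 GC boxes and 8 CpG, with a GC content of 52.8%, close to the medians of 52.4% and 6 CpG over all 32851 RefSeq windows of that length. The windows of Slc22a2 and Slc22a3 also held 0 GC boxes, with 6 and 5 CpG. The GC box occurred at least once on either strand in 32.7% of all windows, so holding it is common. The mostly undetected Slc29a4 held it as well as the detected Slc19a2, but Slc29a4 was shown because of its GC-rich window. A match of letters is no evidence of a bound factor.

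The motif CCAAT, on either strand, was found 2 times each in Slc19a2 and Slc22a2 and in 33.9% of all windows.

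The motif TATAAA, on either strand, was found once, in Slc29a4, and in 12.4% of all windows.

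**Figure D2:**
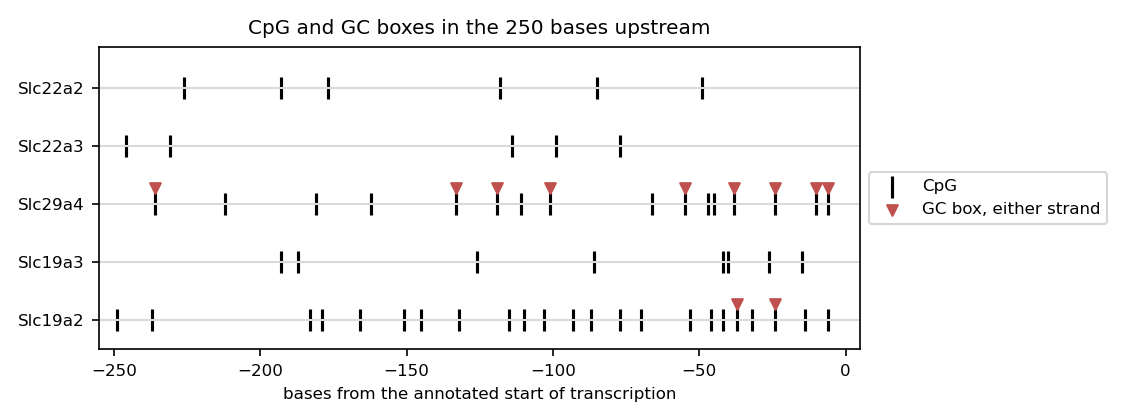
Positions of CpG dinucleotides (black ticks) and GC boxes (red triangles) along the 250 bases upstream of 5 of the transporter genes; the horizontal axis is the distance in bases from the annotated start of transcription. Slc19a2 has the most CpG (23) and Slc29a4 the most GC boxes (9), and the other 3 genes have 0 GC boxes.

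The comparison the design implies is that of livers with metformin plus CCl4 against livers with CCl4 alone. Slc19a2, the widely expressed high-affinity thiamine transporter, had log2 signals of 4.47, 4.67 and 4.84 (lowest, median and highest) in the 6 metformin mice. In CCl4 mice 1 to 4 its log2 signals were 3.48, 4.49, 4.26 and 4.15. Of the metformin mice 5 were above the highest CCl4 mouse, metformin mouse 3 was slightly below it, and CCl4 mouse 1 was the lowest of all. The group means were 4.66 ± 0.13 and 4.09 ± 0.43 (SD, n = 6 and 4), and Slc19a2 was 1.48-fold higher with metformin (95% interval 1.13 to 1.93). The log2 fold change of 0.56 ± 0.17 (SE) passed the test (adjusted p = 0.0226, limma). It was 0.36 and passed (adjusted p = 0.0327, limma) without CCl4 mouse 1, so the lowest mouse accounted for part of the size.

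Slc47a1, the proton-coupled exporter MATE1 at the bile canaliculus, had log2 signals of 1.97, 2.28 and 2.47 (lowest, median and highest) in the metformin mice. In CCl4 mice 1 to 4 they were 2.12, 1.61, 1.55 and 1.96. The groups overlapped through CCl4 mouse 1, which was above 2 of the 6 metformin mice, and the other 3 CCl4 mice were below every metformin mouse. The means were 2.23 ± 0.19 and 1.81 ± 0.27 (SD, n = 6 and 4), a 1.34-fold higher signal with metformin (95% interval 1.07 to 1.66). The log2 fold change of 0.42 ± 0.14 (SE) passed (adjusted p = 0.0342, limma). The call was lost without metformin mouse 1, 2, 3 or 6 or without CCl4 mouse 2 or 3, at adjusted p from 0.0547 to 0.102 (limma) and log2 fold changes from 0.33 to 0.41.

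Both detected carriers were called higher by limma, and the rest of the 6 genes did not pass the filter on dim probes and were not tested in this fit. The groups overlapped in both, and they did not overlap in 33.7% of all features tested. Of all 22183 features tested, 45.4% were called, 28% higher and 17.4% lower, so calls in this comparison were common and 2 calls are not a result particular to these carriers. The median log2 fold change of all features was 0.10, and relative to it Slc19a2 was at 0.46 and Slc47a1 at 0.32. Scaling the arrays to their spike-in control probes in place of the 75th percentile put that median at -0.42, and 9.85% of the calls were then higher, against 61.7%. On that scale Slc19a2 was at 0.036 (adjusted p = 0.916) and Slc47a1 turned to -0.11 (adjusted p = 0.685, limma), so whether either transcript rose in absolute amount depended on the scaling. Slc19a2 kept its call in 15 and Slc47a1 in 7 of 21 other limma fits, with adjusted p from 0.00528 to 0.916 and from 0.0156 to 0.685.

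**Figure D3:**
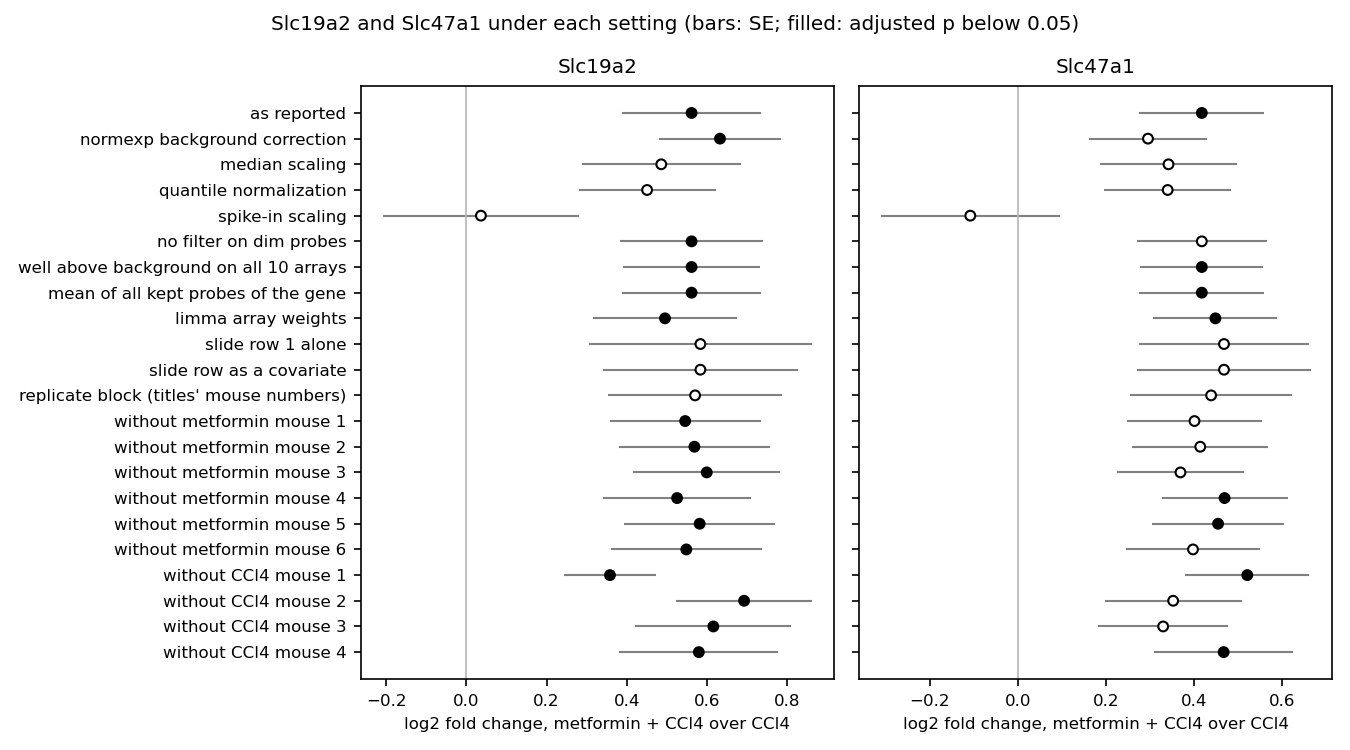
Log2 fold change of Slc19a2 and Slc47a1, metformin plus CCl4 over CCl4 (horizontal axis), in the reported fit and 21 others (vertical axis); bars are SE and filled points passed an adjusted p of 0.05 in limma. Slc19a2 stayed above 0 throughout, from 0.036 to 0.69, and Slc47a1 ran from -0.11 to 0.52, with its only negative value after spike-in scaling.

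Within the groups the 2 carriers did not move together. After subtraction of the group means, their deviations had a Pearson r of -0.71 and a Spearman rho of -0.76 over the 10 mice, which share array scaling within each mouse. CCl4 mouse 1 had the lowest Slc19a2 of its group (-0.61 from the mean) and the highest Slc47a1 (0.31), while CCl4 mice 2 and 3 had high Slc19a2 and low Slc47a1. Without CCl4 mice 1 and 2, the farthest from the median in Slc19a2, r was -0.53 over 8 mice. In all 14523 named genes compared, the deviations of Slc19a2 were most like those of Cdc14b (r = 0.93), Derl3 (r = 0.90) and Defb33 (r = 0.90), and those of Slc47a1 most like those of Haus7 (r = 0.92), Parva (r = 0.90) and S1pr5 (r = 0.90). Over 10 mice such values describe these arrays only.

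**Figure D4:**
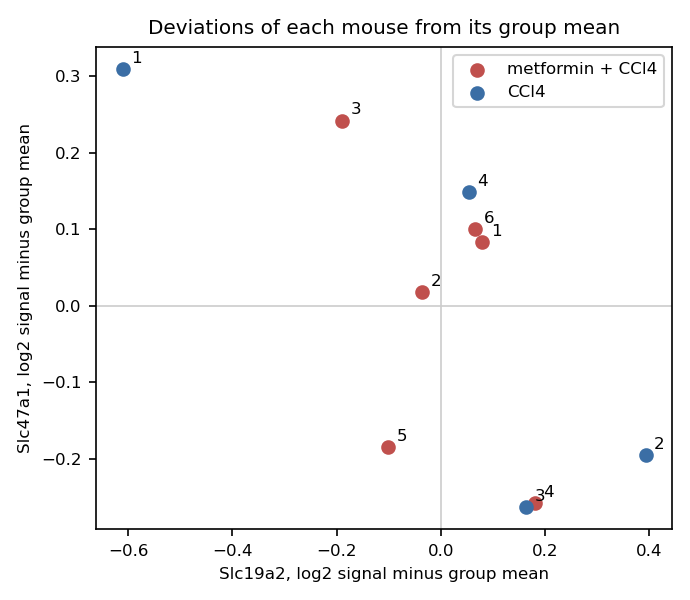
Deviation of Slc19a2 (horizontal axis) and Slc47a1 (vertical axis) from the group mean, in log2 units, 1 point per mouse with its number, metformin plus CCl4 in red (n = 6) and CCl4 in blue (n = 4). CCl4 mouse 1 sits at the upper left (-0.61, 0.31) and CCl4 mouse 2 at the lower right (0.39, -0.20).

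The polyspecific uptake carriers were at background. Slc22a2 had log2 signals of -7.12, -6.68 and -5.95 (lowest, median and highest) in metformin mice, and -6.93, -6.72, -6.92 and -7.04 in CCl4 mice 1 to 4. It was not well above background in any of the 10 livers. Slc22a3, which carries monoamines and other organic cations, had log2 signals of -6.62, -5.83 and -3.08 (lowest, median and highest) in metformin mice. In CCl4 mice 1 to 4 it was at -5.91, -6.28, -6.68 and -6.80, and only metformin mouse 1, at -3.08, was well above background. The other 9 values are signals at background, so the groups could not be compared.

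Slc29a4, a carrier of serotonin and dopamine that also takes metformin in an acidic medium, had log2 signals of -5.94, -5.28 and -4.96 (lowest, median and highest) in the metformin mice. In CCl4 mice 1 to 4 it was at -4.92, -4.91, -5.06 and -2.505, and only mouse 4 was well above background. With 1 of 4 CCl4 arrays and 0 of 6 metformin arrays above background, no difference between the groups in this transcript is read from these signals.

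Slc19a3, the intestinal thiamine transporter THTR2, had 2 probes on the array. Probe 1 had log2 signals of -6.69, -5.34 and -4.34 in metformin mice (lowest, median and highest) and -5.12, -4.95, -4.95 and -4.68 in CCl4 mice 1 to 4. Probe 2 had -7.18, -6.46 and -4.21 in metformin mice and -5.78, -6.58, -6.52 and -6.69 in CCl4 mice. Probe 1 was well above background in metformin mouse 1 alone and probe 2 in metformin mouse 6 alone, so no mouse had the flag on both. In metformin mouse 1 probe 2, though not flagged, was at -4.83. The lowest signal of any probe well above background on that array was -4.88. At this sensitivity a difference in Slc22a2, Slc22a3, Slc29a4 or Slc19a3 was not detectable, which does not show that the transcripts were absent.

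Related genes outside the 6 were also examined. Slc47a2 (MATE2), another exporter of the MATE family, was well above background in metformin mice 1 and 3 only, at -3.22 and -3.05, and in CCl4 mice 1 to 4 it was at -5.35, -4.80, -4.51 and -6.39; it did not pass the filter and was not tested.

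Among 14 genes listed as other carriers of cations, carnitine or nucleosides, 13 were tested, of which 3 rose, 1 fell and 9 did not pass. The share called was 30.8%, against 45.4% of all features. Their median log2 fold change was 0.17 against 0.10 for all features. Of the 13, Slc22a16, Slc29a2 and Slc6a4 passed the filter on dim probes only through the group in which they were higher; of the other 10 genes 2 rose and 1 fell, with a median of 0.15. After spike-in scaling 1 of the 13 was higher and 3 were lower. Slc29a2, the nucleoside transporter ENT2, had non-overlapping groups, at log2 signals of -3.02 to -1.84 under metformin against -5.00 to -4.26 under CCl4 alone, but only 2 of 4 CCl4 arrays were well above background, so no fold or p is given. Slc22a15, a carrier of zwitterions, was lower, at -0.74 ± 0.14 (adjusted p = 0.00181, limma). Slc29a1, the ubiquitous ENT1, was at 0.14 and did not pass. Of 13 organic anion carriers of the SLC22 family 6 were tested, and 1 rose, 1 fell and 4 did not pass, with a median of 0.63. Here 33.3% were called, also against 45.4% of all features. The one that rose, Slc22a27, was well above background on 5 of 6 metformin and 1 of 4 CCl4 arrays and passed the filter only through the former; of the other 5 genes 0 rose and 1 fell by limma, with a median of 0.29. Slc22a28 was lower in all metformin mice at -1.05 ± 0.15 (adjusted p = 3.47e-04, limma) by its brighter probe and at -0.19 by another; this gene belongs to a cluster of near-identical copies that probes may not separate.

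Thiamine-related genes were listed because Slc19a2 supplies their cofactor. Of 14 listed, 12 were tested, of which 5 rose, 0 fell (0 at an unadjusted p below 0.05, limma) and 7 did not pass, with a median of 0.23. Thus 41.7% of the tested genes were called, against 45.4% of all features. The subunits Bckdhb and Pdhb, of the thiamine-dependent branched-chain ketoacid and pyruvate dehydrogenases, were at 0.62 ± 0.079 and 0.30 ± 0.090 (adjusted p = 1.99e-04 and 0.0192, limma). Bckdha and Pdha1, other subunits of the same enzymes, were at 0.03 and -0.08 and did not pass. After spike-in scaling Bckdhb was at 0.098 and Pdhb at -0.22, neither called. Spike-in scaling left 1 of the 12 higher and put 4 lower, so the direction of this list followed the scaling.

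Of 11 transcription factors reported to act on cation carrier genes, 10 were tested, 3 rose, 2 fell and 5 did not pass, with a median of 0.32. The share called was 50%, against 45.4% of all features. Ppara, the fatty acid sensing nuclear receptor, and Nfe2l2, the antioxidant factor NRF2, were at 1.96 ± 0.33 and 1.76 ± 0.20 (adjusted p = 0.00103 and 1.06e-04, limma), and Sp1, a factor that binds GC boxes, was at -0.33 ± 0.089 (adjusted p = 0.0125, limma). Hnf4a, a hepatocyte nuclear receptor, was at 0.21 and did not pass. In the 4 lists together 12 of 41 tested genes rose, 4 fell and 25 did not pass. Over all features tested, 28% were called higher and 17.4% lower. After spike-in scaling 5 of the listed genes were higher and 11 lower, so the balance of directions followed the scaling. The higher genes in both counts include Slc29a2 and Slc22a27, which passed the filter on dim probes only through the metformin arrays.

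**Figure D5:**
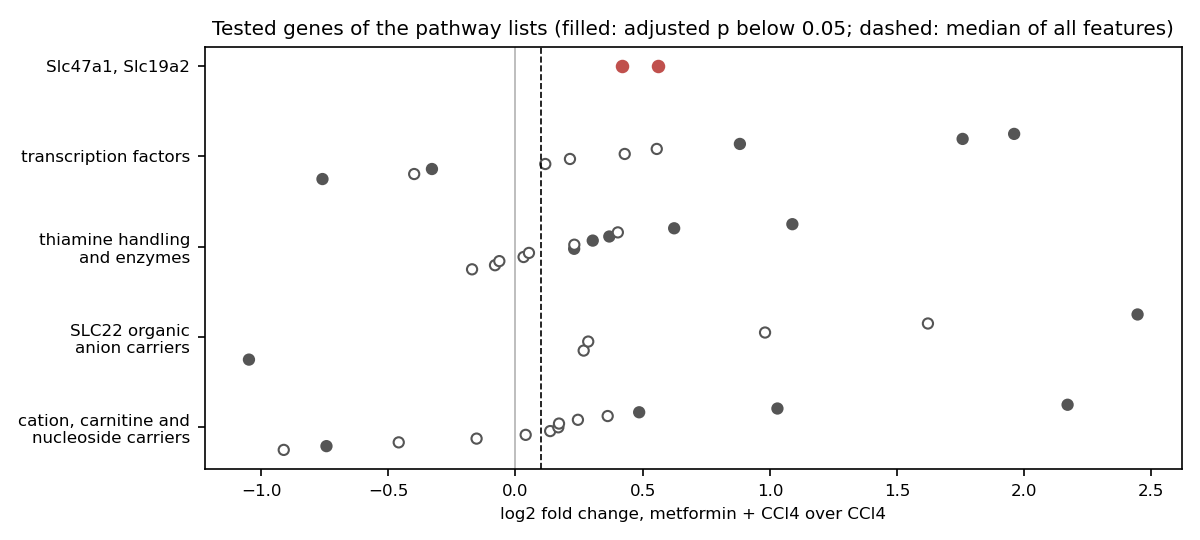
Log2 fold change, metformin plus CCl4 over CCl4 (horizontal axis), of the tested genes in 4 lists of related genes and of Slc47a1 and Slc19a2 (vertical axis); each point is 1 gene, filled where it passed an adjusted p of 0.05 in limma and red for the 2 transporters. The dashed line is the median of all features, 0.10; Slc47a1 and Slc19a2 lie at 0.42 and 0.56, inside the range of the thiamine list.

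Markers of other cells of the liver differed between the groups in the same bulk RNA, in which fewer cells of a type and less RNA per cell cannot be told apart. The counts stand beside 45.4% of all features called, 28% higher and 17.4% lower. Of 7 stellate cell and myofibroblast markers 5 fell and 0 rose (6 and 0 at an unadjusted p below 0.05, limma), and the log2 of their summed signal was 1.88 to 2.72 under metformin against 2.71 to 3.61 under CCl4 alone. Of 6 bile duct markers 3 fell and 1 rose, and Krt7 and Epcam, 2 of those that fell, passed the filter only through the CCl4 arrays; the list had summed log2 signals of 1.08 to 3.40 and 2.66 to 3.71. Among endothelial and macrophage markers 3 of 6 fell in each list. The hepatocyte markers summed to 12.4 to 12.8 with metformin and 12.7 to 13.0 without. Of 7 pericentral hepatocyte markers 3 rose and 2 fell, among them Glul, glutamine synthetase, at 1.05 and Cyp1a2, a pericentral drug-metabolising enzyme, at -1.21. The part of cell composition in the Slc19a2 and Slc47a1 differences was not tested.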

How the data were processed

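Liver RNA of 10 mice was hybridised to Agilent 1-colour mouse arrays; groups and mouse numbers come from the sample titles. The deposited scanner files hold spot intensities (the software's processed signal) made with Feature Extraction 10.7.3.1, per the file headers; how that signal was corrected for background is not given in the sources used here. The deposited flags mark spots as well above background or irregular. A deposited table of the authors holds log2 quantile-normalised values of 4595 probes passing FDR 0.01 and fold 1.5, per the file header; none of the 7 transporter probes is in it, so it gave no value.

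From the processed signals, log2 values minus each array's 75th percentile were computed, without irregular spots (135 to 179 per array), and repeat spots were averaged. A probe was tested if the well-above-background flag was set on 5 of 6 metformin or 3 of 4 CCl4 arrays. Names came from matching the files' accessions to RefSeq, for 28664 of 55681 probes; the grid's build is mm9 and the printed windows are from GRCm38.p6. The brightest tested probe stood for a gene. Groups were compared over 22183 features with limma 3.58.1 in R 4.3.3 (two-sided, Benjamini-Hochberg, threshold 0.05). The fit was also run on simulated data in which 200 features were changed 2-fold. It called 66% of these, and 4.35% of its calls were unchanged features. The simulation changed far fewer features than were called in the data and held no slide effect, so it does not check for one. Figures used matplotlib 3.10.9. The number of arrays limits the precision. The p-values set the difference between the groups against the spread between mice on the same slide, and they hold no variation between slides.

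The transporters and the lists were chosen with earlier results of these data known. Named by rule were the 6 transporters, Slc47a2, up to 3 called genes per list and direction with the largest change and non-overlapping groups, the 3 genes closest in within-group deviations, and up to 3 markers a list. Slc29a1, Slc22a16, Slc22a27, Slc6a4, Hnf4a, Bckdha, Pdha1 and the kidney tubule markers Slc34a1, Aqp2 and Lrp2 were named after their values were seen. Results for some genes the rule covers are not reported here. Alternatives were normexp on median spot signals (offset 50), other scalings, filters and probe rules, array weights, slide row, a replicate block, an exact permutation test and left-out mice. Another Slc19a3 probe and the mean of its probes were added after seeing the data.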

Additional observations from a re-analysis of the deposited data

Results flagged for a closer look

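A single mouse stood apart from the others of its group in 2 of the 14 group and probe combinations, where chance flags about 1 in 20. Slc29a4 was at -2.505 in CCl4 mouse 4, with a gap to the next mouse of 0.942 of the whole range (critical value 0.829 for 4 mice). Slc22a3 was at -3.08 in metformin mouse 1, with a gap of 0.661 of the range (critical value 0.625 for 6 mice). In these mice the 3 tested kidney tubule markers summed to a log2 signal of -1.33 (CCl4 mouse 4) and -1.40 (metformin mouse 1). These sums were within the ranges of their groups or at their lower end (-1.36 to -0.88 and -1.40 to -0.75). The bile duct markers summed to 3.71, the highest of the CCl4 group, and 2.29. The part of either marker list in the 2 values was not tested.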

How the results depend on the processing

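Limits: each group had its own slide, only 2 of the 6 transporters were above background, and signal over background leaves the other 4 unmeasured in nearly every liver. Slc19a2 kept its call when any 1 mouse was left out (0.36 to 0.69) but not after median scaling (0.49), quantile normalization (0.45), spike-in scaling (0.036) or with slide row 1 alone or slide row as a covariate (0.58 in both). Slc47a1 lost it with normexp (0.30), median scaling (0.34), quantile normalization (0.34), no filter (0.42), slide row 1 alone or as a covariate (0.47 in both), turned to -0.11 after spike-in scaling, and ran from 0.33 to 0.52 when 1 mouse was left out. With the titles' mouse numbers as a replicate block the values were 0.57 and 0.44 (adjusted p = 0.1003 and 0.124, limma). Same-numbered mice did not deviate together (r = -0.13, -0.11, 0.080 and -0.00097 across probes), so they share only a number, and the block used 4 of the 6 metformin mice for the contrast. The number of transporters called, 2, was 1 with normexp or no filter, 1 to 2 without 1 mouse, and 0 with limma after median, quantile or spike-in scaling (2, 2 and 0 at an unadjusted p below 0.05), with slide row 1 alone or slide row as a covariate (1 and 2) and with the block (1). Slide row 1 alone and as a covariate rest on the same 2 metformin mice. The 4 dim transporters give only differences between signals mostly at background, which measure no change in the transcript: Slc22a2 (0.21) moved to -0.31 after spike-in scaling and -0.18 by slide row 1 alone or as a covariate, Slc29a4 (-1.02) to -0.13 with normexp, and Slc19a3 (-0.43) to 0.39 by its other probe and 0.22 by slide row 1 alone or as a covariate; Slc22a3 (0.85) ranged from -0.026 with normexp to 1.77 by slide row 1 alone or as a covariate, within the spread between mice. The cause was not tested. Exact permutation of the arrays gave unadjusted two-sided p = 0.0190 for Slc19a2 and p = 0.0381 for Slc47a1. The number of called genes in the related lists was 14 to 18 under 4 scalings and background corrections, but its direction was not stable: 12 higher and 4 lower became 5 and 11 after spike-in scaling. Slc29a2 and Slc22a27, which passed the filter only through the metformin arrays, are among the higher genes in both counts. No fit on probes well above background on all arrays was possible for the 4 dim genes.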
